A study of Homo sapiens with 2 samples.

Results

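The miR-181 family was followed in a pair of small RNA libraries of a human oral squamous cell carcinoma line, with attention to how reads were divided between the arms of its hairpins. Members were chosen by name, as the entries of the deposited table called miR-181a-5p, miR-181a-3p, miR-181a-2-3p, miR-181b-5p, miR-181c-5p and miR-181d-5p. All 6 had an entry among the 1213 entries of the table. The other 3p products of these hairpins, miR-181b-3p, miR-181b-2-3p and miR-181c-3p, were also in the table and are described beside the members. miR-181d-3p was not analysed here.

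One library came from the parental line UM-SCC6. The other came from UM-SCC6-M, a population of the same line that had crossed a matrix channel in a microfluidic chip and was collected and regrown over 3 rounds. The labels call UM-SCC6-M strongly invasive and partly mesenchymal. No added gene, drug or knockdown is named in the labels for either library. With 1 library for each condition, the spread between cultures is unknown, and the conditions could not be tested against each other. UM-SCC6-M held 7699490 reads assigned to entries of the table, and the parental library 8182958.

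A microRNA is cut from a hairpin RNA as a short duplex, of which 1 strand is usually kept by an Argonaute protein and the other is degraded. The strand nearer the 5′ end of the hairpin is the 5p product and the other the 3p product. The kept strand finds messenger RNAs by pairing through its seed, here bases 2 to 8, and lowers their output. The miR-181 family is best known from lymphocytes, where miR-181a tunes the sensitivity of the T cell receptor by repressing phosphatases. In carcinoma cells its members have been reported to respond to TGF-beta, a signal that can drive epithelial cells toward a mesenchymal state.

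The family is made from 6 hairpins in 3 clusters of 2. In GRCh38 with GENCODE release 29, MIR181A1 (chr1:198859044-198859153, minus strand) and MIR181B1 lie 61 bases apart in an intron of the long non-coding RNA gene MIR181A1HG. MIR181A2 (chr9:124692442-124692551, plus strand) and MIR181B2 lie 1158 bases apart in an intron of MIR181A2HG, and on the opposite strand from NR6A1, a nuclear receptor gene, also within an intron. MIR181C and MIR181D lie 66 bases apart on chromosome 19 in an intron of NANOS3, a germ cell gene. These positions were looked up by name and do not come from the authors' table.

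The 5p products are shown first because they share the seed that defines the family. The sequences are those of RefSeq (GRCh38.p14), written 5′ to 3′ with bases 2 to 8 in capitals.
miR-181a-5p: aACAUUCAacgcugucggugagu
miR-181b-5p: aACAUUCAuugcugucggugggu
miR-181c-5p: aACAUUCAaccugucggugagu
miR-181d-5p: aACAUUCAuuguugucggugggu
All 4 carried the seed ACAUUCA. Of the mature miRNAs in the RefSeq table, only miR-4262 shared it, and miR-4262 was not among the entries analysed here. Counted from the 5′ end, miR-181b-5p differs from miR-181a-5p by A9U, C10U and A21G. miR-181d-5p differs from miR-181b-5p by C12U alone. miR-181c-5p lacks 1 base of miR-181a-5p, the G at position 11. How the authors assigned reads that could come from more than 1 of these is not given in the sources used here. miR-181a-5p is the same from MIR181A1 and MIR181A2, and miR-181b-5p is the same from MIR181B1 and MIR181B2, so their reads do not tell the locus.

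The 3p products are shown because, unlike the 5p products, they differ between loci and carry other seeds.
miR-181a-3p: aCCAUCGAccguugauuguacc
miR-181a-2-3p: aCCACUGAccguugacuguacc
miR-181b-3p: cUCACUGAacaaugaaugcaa
miR-181b-2-3p: cUCACUGAucaaugaaugca
miR-181c-3p: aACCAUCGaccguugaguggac
miR-181a-3p comes from MIR181A1 on chromosome 1 and miR-181a-2-3p from MIR181A2 on chromosome 9. From the first to the second the changes are U5C, C6U and U16C, and the changes at positions 5 and 6 lie within the seed. No other mature miRNA in the RefSeq table had the seed of either. miR-181b-3p and miR-181b-2-3p had the same seed, UCACUGA, and come from chromosomes 1 and 9.

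The miR-181a hairpins are printed because the largest shift within the family was between their arms. Capitals mark the 5p and then the 3p product.
MIR181A1: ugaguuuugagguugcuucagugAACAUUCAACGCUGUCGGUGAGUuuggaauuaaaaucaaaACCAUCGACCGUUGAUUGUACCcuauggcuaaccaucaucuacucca
MIR181A2: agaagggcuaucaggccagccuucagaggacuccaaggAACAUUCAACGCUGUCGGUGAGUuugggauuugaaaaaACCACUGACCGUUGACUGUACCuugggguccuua
Both 5p products begin with the same bases, aaca, and both 3p products with acca.

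The first question was how the level of each family member compared between the invasive and the parental cells. The 5p members had lower values in UM-SCC6-M and the miR-181a 3p products higher values, and no member with 50 or more normalized reads in either library was 2-fold apart. Levels are normalized reads, meaning reads scaled by the authors. A log2 ratio is UM-SCC6-M over parental, with 0.5 reads added to each library. Intervals in brackets are exact 95% intervals for counting error only, and reads copied by PCR are not independent molecules.

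miR-181a-5p, the form best known from T cells, had 391.4 normalized reads in UM-SCC6-M and 735.3 in the parental library, from 3278 and 5533 reads. It was thus 1.88-fold lower in UM-SCC6-M (1.80 to 1.96), a log2 ratio of -0.91. miR-181b-5p, which shares its seed, had 447.9 and 586.4 normalized reads. It was 1.31-fold lower in UM-SCC6-M (1.25 to 1.37), a log2 ratio of -0.39.

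miR-181d-5p, from the chromosome 19 cluster, was scarcer, with 31.8 normalized reads in UM-SCC6-M and 56.5 in the parental library. It was 1.78-fold lower (1.52 to 2.08), a log2 ratio of -0.83. miR-181c-5p, from the same cluster, was close to absent. It was listed at 0 in UM-SCC6-M and at 1.33 normalized reads in the parental library. The deposited fold change placed 4 reads behind that 0, against 10 parental reads. Its log2 ratio of -1.38 had an interval of -3.60 to 0.32, so no difference was detectable at this depth.

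The 3p products of miR-181a lay the other way. miR-181a-3p, from chromosome 1, had 448.0 normalized reads in UM-SCC6-M and 304.4 in the parental library, from 3752 and 2291 reads. It was 1.47-fold higher in UM-SCC6-M (1.40 to 1.55), a log2 ratio of 0.56. miR-181a-2-3p, from chromosome 9, had 304.6 and 242.8 normalized reads, from 2551 and 1827 reads. It was 1.25-fold higher (1.18 to 1.33), a log2 ratio of 0.33.

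**Figure D1:**
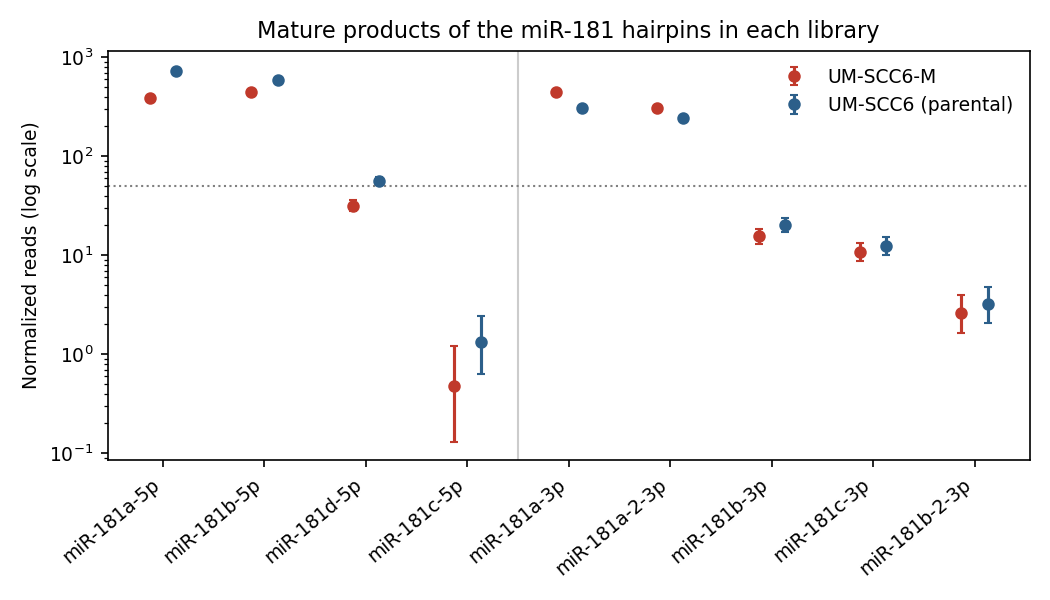
Normalized reads (log axis) of the 9 mature miR-181 products in UM-SCC6-M (red) and the parental library (blue), 5p products left of the vertical line and 3p products right of it, with bars for the exact 95% counting interval. The dotted line is at 50 normalized reads. The 2 miR-181a 3p products are the ones with the red point above the blue, and miR-181c-5p in UM-SCC6-M is drawn from 4 reads although the table lists it at 0.

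The remaining 3p products were minor. miR-181b-3p had 15.6 normalized reads in UM-SCC6-M and 20.2 in the parental library, a log2 ratio of -0.37 (-0.72 to -0.02) under the authors' scaling. As a share of all reads it was 0.00170% (0.00142 to 0.00202) in UM-SCC6-M and 0.00186% (0.00157 to 0.00218) in the parental library. These intervals overlap. miR-181b-2-3p had 2.63 and 3.19 normalized reads, and miR-181c-3p had 10.9 and 12.5. The intervals of the last pair, -1.18 to 0.62 and -0.63 to 0.23 on the log2 scale, included 0. As a share of all reads miR-181c-3p was slightly higher in UM-SCC6-M, at 0.00118% against 0.00115%, so no direction is given for it. Among the 3p products, the higher values in UM-SCC6-M were thus those of miR-181a-3p and miR-181a-2-3p.

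Differences were called by size, at 2-fold or more where the higher of the libraries had 50 or more normalized reads. Of the 6 members, 5 reached 50 normalized reads, miR-181c-5p being the exception, and 0 of these 5 were 2-fold apart. Of all 179 entries at that level, which were not limited to the 1178 with a human miRNA name, 20.1% were 2-fold apart. Toward higher values in UM-SCC6-M there were 7.26%, and toward lower values 12.8%. These shares stand for 13 higher and 23 lower entries, which became 22 and 20 with libraries scaled to their total reads, so the lean toward lower values was lost there. The lean stayed with the median of ratios (13 and 22) and the trimmed mean of M-values (13 and 25). It also stayed with totals that leave out the 10 most abundant miRNAs of each library (13 and 21). At 1.5-fold, 2 of the 5 members were lower (miR-181a-5p and miR-181d-5p) and 0 higher, against 43.6% in either direction over all 179 (25.7% lower and 17.9% higher). The median log2 ratio of the 5 members was -0.39, and that of the 179 entries was 0.04, with its middle 50% between -0.61 and 0.41. Within the 179, 26 entries had a lower ratio than miR-181a-5p, and 33 had a higher ratio than miR-181a-3p. These are descriptions of 2 libraries. The miR-181a arms lay toward opposite sides of the distribution, but neither was at its end.

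**Figure D2:**
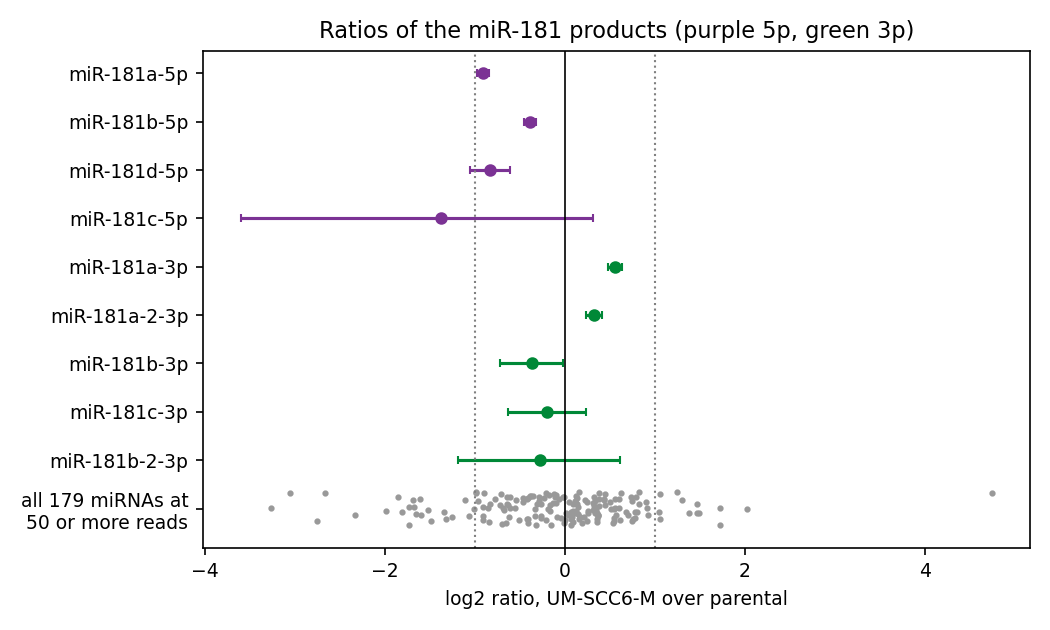
Log2 ratios, UM-SCC6-M over parental, of the miR-181 products (purple 5p, green 3p) with exact 95% counting intervals, above the ratios of all 179 entries at 50 or more normalized reads (grey, spread vertically for visibility). Dotted lines mark 2-fold. The 5p products of miR-181a, miR-181b and miR-181d lie between -0.91 and -0.39, and the 3p products of miR-181a at 0.33 and 0.56.

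The order of the members was not the same in both libraries. In the parental library miR-181a-5p led, followed by miR-181b-5p, miR-181a-3p, miR-181a-2-3p and miR-181d-5p, each step larger than counting error. In UM-SCC6-M miR-181a-3p and miR-181b-5p led together with 3752 and 3751 reads and could not be separated. miR-181a-5p followed, then miR-181a-2-3p and miR-181d-5p. Over all entries of the table, miR-181a-5p ranked at 73 in the parental library and at 90 in UM-SCC6-M, and miR-181a-3p at 107 and 82. As shares of all reads, miR-181a-5p made up 0.0676% of the parental library and 0.0426% of UM-SCC6-M, and miR-181a-3p 0.0280% and 0.0487%. The products are 20 to 23 bases long, so no scaling by length was applied, but reads of different sequences can be ligated with different efficiency.

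The next comparison was that of the arms. It uses the ratio of 2 products within a library, so the scaling between libraries cancels. In the parental library miR-181a-5p outnumbered miR-181a-3p by 2.42 to 1. In UM-SCC6-M the 3p product was the more abundant, at 1.14 reads for each 5p read. The log2 ratio of 5p to 3p went from 1.27 to -0.19, a difference of -1.47 (-1.57 to -1.37), or 2.76-fold.

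The chromosome 9 product gave a difference of the same direction. miR-181a-5p outnumbered miR-181a-2-3p by 3.03 to 1 in the parental library and by 1.28 to 1 in UM-SCC6-M, a log2 difference of -1.24 (-1.34 to -1.13). These comparisons share the 5p reads and are not independent. With the 3p products summed, the 3p arm held 42.7% of the miR-181a reads in the parental library (41.7 to 43.7) and 65.8% in UM-SCC6-M (64.8 to 66.7).

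The total of miR-181a differed little beside this. Its 5p and both 3p products summed to 9651 reads in the parental library and 9581 in UM-SCC6-M, or 1282 and 1144 normalized reads, a log2 ratio of -0.16 (-0.21 to -0.12) under the authors' scaling. When libraries were scaled to their total reads, every log2 ratio moved up by 0.24, which exceeds the size of that difference and turns its direction. No direction is therefore given for the total.

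miR-181b showed no shift of its arms beyond counting error. Its 5p product held 96.2% of the miR-181b reads in the parental library (95.6 to 96.7) and 96.1% in UM-SCC6-M (95.4 to 96.7). The log2 difference in balance was -0.03, with an interval of -0.36 to 0.30 that does not meet the interval of miR-181a with both 3p products (-1.45 to -1.28). miR-181c was read mainly from its 3p arm, with 91 reads against 4 of the 5p product in UM-SCC6-M and 94 against 10 in the parental library. The interval of its difference in balance, -3.45 to 0.59, is too wide to give a direction. Over the family, 5p products made up 70.3% of all miR-181 reads in the parental library (69.5 to 71.0) and 52.7% in UM-SCC6-M (51.9 to 53.6).

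**Figure D3:**
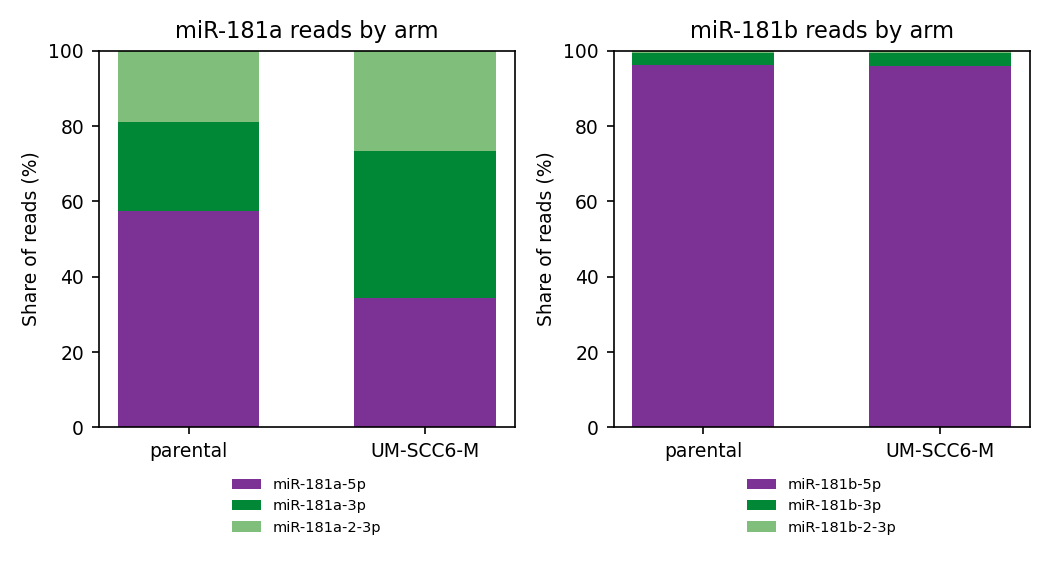
Share of reads (percent) from each arm of miR-181a (left) and miR-181b (right) in the parental library and UM-SCC6-M, with the 5p product in purple and the 3p products of the chromosome 1 and chromosome 9 hairpins in dark and light green. The 5p share of miR-181a is 57.3% in the parental library and 34.2% in UM-SCC6-M, whereas that of miR-181b is 96.2% and 96.1%.

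The balance of miR-181a was then placed among hairpins of all families. Arms were paired where their names differed only in 5p and 3p, so a pair such as miR-181a-5p with miR-181a-2-3p was not counted. There were 30 hairpins paired in this way with both arms at 50 or more normalized reads. Of these, miR-423 and miR-3184 had nearly mirrored balances (-1.14 and 1.14 in UM-SCC6-M). Their arms also had matching log2 ratios, 0.55 for miR-423-5p and miR-3184-3p and 0.36 for miR-423-3p and miR-3184-5p. Whether these names share reads was not tested, and both are counted in the shares that follow. The balance differed by 1 or more on the log2 scale in 30% of them, with 13.3% toward the 3p arm in UM-SCC6-M and 16.7% toward the 5p arm. miR-181a had the sixth largest difference by size, behind miR-30a, miR-30e, miR-339, miR-455 and miR-21. Hairpins whose difference was closest to that of miR-181a were miR-455 (-1.66), miR-30e (-1.92) and miR-532 (-0.99). The miR-181a value ranked here, -1.47, sets 5p reads of both its hairpins against the 3p product of MIR181A1 alone. With both 3p products the difference was -1.37, smaller in size than that of miR-151a (1.46). For 10% of the hairpins the more abundant arm was not the same in both libraries, namely miR-30e, miR-181a and miR-374a. miR-30e changed from 5p to 3p like miR-181a, and miR-374a from 3p to 5p. In miR-30a and miR-30e the 3p product had a log2 ratio near 0 under the authors' scaling (0.16 and 0.07), while the 5p product was far lower (-1.81 and -1.86). In miR-181a the ratios of the arms were less unequal in size, at -0.91 and 0.56. Arms with ratios of opposite sign were not particular to miR-181a. They were also found in miR-30a, miR-30e, miR-532 (-0.38 and 0.61), miR-425 (-0.61 and 0.35) and other hairpins. In miR-151a the 5p product was the higher one, with ratios of 0.55 and -0.91.

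**Figure D4:**
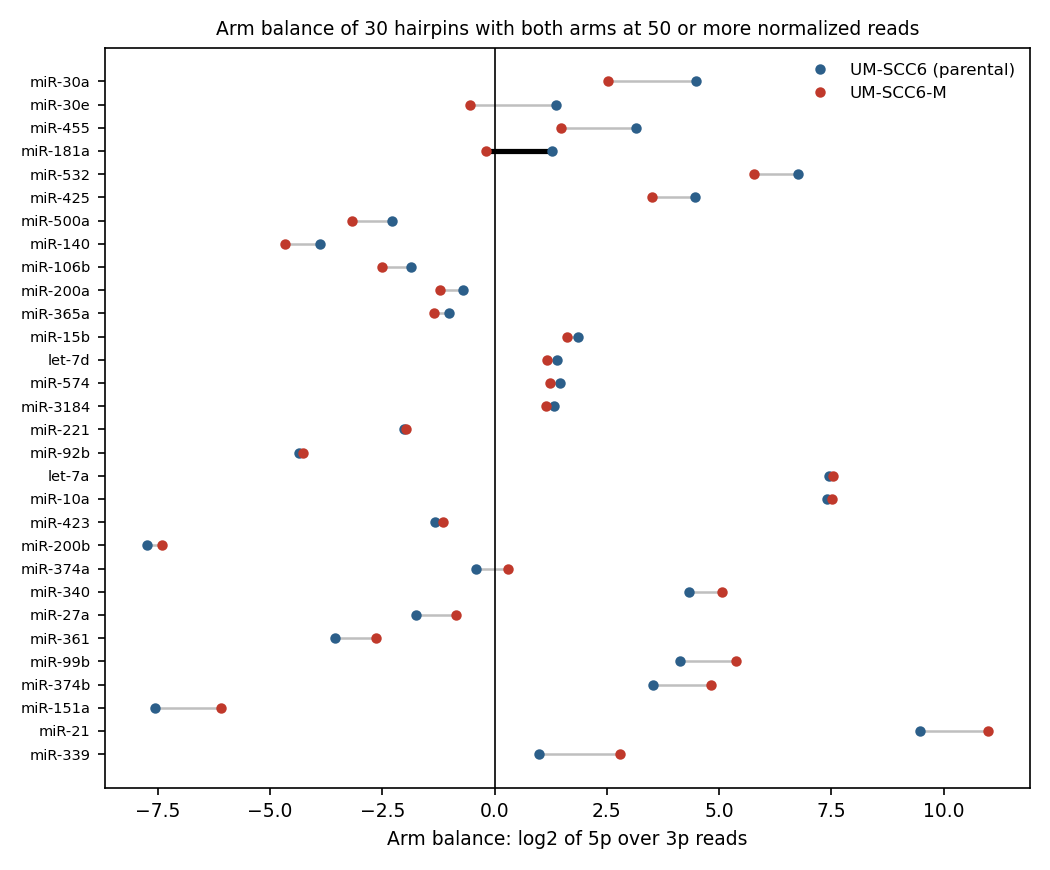
Arm balance (log2 of 5p over 3p reads) of 30 hairpins with arms paired by name, in the parental library (blue) and UM-SCC6-M (red). Hairpins are ordered by the difference, with the line of miR-181a in black. The miR-181a points lie at 1.27 and -0.19, on either side of equal arms, as do those of miR-30e and miR-374a.

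Next, 3p products of different loci were compared. Reads of miR-181a-5p and miR-181b-5p do not tell the locus, so the output of a locus and its arm balance could not be told apart. The values below are therefore for the 3p products only. In the parental library the chromosome 1 product miR-181a-3p made up 55.6% of the miR-181a 3p reads (54.1 to 57.2), and in UM-SCC6-M 59.5% (58.3 to 60.7). The log2 ratio of miR-181a-3p to miR-181a-2-3p differed by 0.23 (0.11 to 0.35), a small difference next to that between the arms. For miR-181b the corresponding difference was -0.09 (-1.06 to 0.89), on 22 and 24 reads of miR-181b-2-3p.

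On chromosome 1 the neighbouring hairpins gave 3p products with different ratios. miR-181a-3p and miR-181b-3p come from hairpins 61 bases apart on chromosome 1, and had log2 ratios of 0.56 and -0.37. There were 28.6 reads of miR-181a-3p for each read of miR-181b-3p in UM-SCC6-M and 15.1 in the parental library, a log2 difference of 0.93 (0.57 to 1.28). On chromosome 9 the corresponding difference was 0.60, with an interval of -0.29 to 1.52 that includes 0.

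The last comparison within the family was the make-up of its 5p products, which share a seed. Together they had 871.5 normalized reads in UM-SCC6-M and 1379 in the parental library, a log2 ratio of -0.66 (-0.71 to -0.62), or 1.58-fold lower. miR-181a-5p made up 53.3% of these reads in the parental library (52.3 to 54.3) and 44.9% in UM-SCC6-M (43.8 to 46.1). miR-181b-5p made up 42.5% in the parental library (41.6 to 43.5) and 51.4% in UM-SCC6-M (50.2 to 52.5). The leading 5p member was therefore miR-181a-5p in the parental library and miR-181b-5p in UM-SCC6-M.

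The scarcer 5p members held small shares. miR-181d-5p made up 4.09% of the 5p reads in the parental library (3.72 to 4.49) and 3.64% in UM-SCC6-M (3.23 to 4.10). Its ratio to miR-181a-5p showed no difference beyond counting error, at -0.08 on the log2 scale for miR-181a-5p over miR-181d-5p (-0.31 to 0.16). Its ratio to miR-181b-5p, the product it differs from by 1 base, was lower in UM-SCC6-M by a log2 difference of -0.44 (-0.68 to -0.21). miR-181c-5p made up 0.0963% (0.0462 to 0.177) and 0.0548% (0.0149 to 0.140).

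Other miRNAs with a like ratio were named by a rule, over these 2 libraries and with no statement on function. Among miRNAs of other families at 50 or more normalized reads, those with the log2 ratio closest to that of miR-181a-5p were miR-151a-3p (-0.91), miR-3615 (-0.91) and miR-126-3p (-0.90). Those closest to miR-181a-3p were miR-151a-5p (0.55), let-7d-5p (0.56) and miR-19b-3p (0.55). The arms of the miR-151a hairpin thus stand next to those of miR-181a in ratio, with the arms exchanged.

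A list of 17 other miRNAs reported to respond to TGF-beta was set beside the family. Of these, 11 reached 50 normalized reads, 1 was at least 2-fold higher and 1 at least 2-fold lower, against 7.26% and 12.8% over all 179 entries. The higher one was miR-503-5p, with 68.5 against 28.97 normalized reads (2.36-fold). The lower one was miR-29b-3p, which represses collagen transcripts, with 43.8 against 365.6 (8.33-fold). The 4 most abundant by the mean of both libraries were miR-21-5p (log2 ratio -0.17), miR-200b-3p (0.45), miR-10b-5p (0.22) and miR-155-5p (0.24). The next in abundance lay further from 0, with miR-24-3p at -0.71, miR-23a-3p at 0.74, miR-200a-3p at -0.99 and miR-27a-3p at -0.99. The median of the 11 was -0.17, and the members went both ways.

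Because miR-181a is abundant in lymphoid cells, markers of blood cells were read in both libraries. miR-142-3p, miR-142-5p, miR-150-5p and miR-451a were listed at 0 in both. The fewest reads behind a value listed above 0 were 9 in UM-SCC6-M and 8 in the parental library. A marker listed at 0 may therefore still have had a few reads. miR-486-5p had 17.9 normalized reads in UM-SCC6-M and 24.6 in the parental library, and miR-223-3p and miR-144-3p were not analysed here. Of the epithelial markers, miR-200b-3p was higher in UM-SCC6-M, at 17481 against 12823 normalized reads. miR-200a-3p was lower, at 1344 against 2674 (1.99-fold), and miR-429 stood at 793.1 and 844.7. The values of miR-200c-3p (1.79 and 2.66) and miR-203a-3p (2.75, and listed at 0 in the parental library) were near the lowest listed values. miR-141-3p and miR-205-5p were not analysed here. The 7 stromal markers summed to 113.1 normalized reads in UM-SCC6-M and 64.6 in the parental library, with miR-127-3p, miR-145-5p and miR-214-3p listed at 0 in both. miR-199b-5p (87.2 against 42.0) and miR-199a-3p (21.9 against 10.5) were higher in UM-SCC6-M. miR-143-3p (4.06 against 10.4) and miR-199a-5p (listed at 0, against 1.73) were lower. The endothelial markers went both ways, with miR-126-3p at 519.9 against 968.3 and miR-126-5p at 30.6 against 17.8, and summed to 550.5 and 986.1. The part of the stromal and endothelial markers in the differences of the miR-181 products was not tested.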

How the data were processed

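Small RNA libraries were prepared from total RNA with a ligation kit and gel selection, per the labels' protocols. The submitters' processing notes name Bowtie. Build, miRNA release, counting and scaling method are not given in the sources used here. One table was deposited by the authors, with a scaled read signal per library, their log2 fold change, and p-values and q-values that were not used. Each signal value above 0 was a whole multiple of 0.119 (UM-SCC6-M) or 0.133 (parental), within 7.2e-05 reads, taken as the worth of 1 read. Where 1 library was listed at 0, its reads came from the deposited log2 fold change, whole within 0.00023 reads. Reads in both libraries were known for 555 entries. Levels, ratios and Clopper-Pearson or exact odds ratio intervals (95%) came from these reads, and the ratio script was tested on simulated data. With 1 library a group, differences were read by size.

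Members and lists were chosen with earlier results of these data known. Named miRNAs were all miR-181 products and seed relatives, the 3 nearest in ratio to miR-181a-5p and to miR-181a-3p, the 3 hairpins nearest in arm balance, up to 4 abundant members of the TGF-beta list and any of it 2-fold apart, and cell type markers. Other hairpins, and further members of the TGF-beta list, were named after their values were seen. All 10 miR-181 products matched RefSeq by name, 9 of which were in the table. Alternatives were other scalings, floors, thresholds, added reads and arm definitions. Python 3.11.15, numpy 2.4.6, pandas 2.3.3, scipy 1.17.1 and matplotlib 3.10.9 were used.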

Additional observations from a re-analysis of the deposited data

How the results depend on the processing

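No paired analysis was possible because each group had 1 library. The number of members 2-fold apart stayed at 0 under 4 other scalings. Floors of 10 and 200 normalized reads, the 4-fold threshold and the deposited fold changes also gave 0 but could not have done otherwise. A floor of 10 admits no further member, and a floor of 200 or 4-fold can only remove some. The deposited fold changes are the ratio of the same 2 signals. The number was 1 without a floor (miR-181c-5p, on 4 and 10 reads) and 2 at 1.5-fold, as fewer reads or a smaller difference then suffice. The log2 ratio of the summed 5p products was -0.42 with libraries scaled to total reads and -0.59 with totals that leave out the 10 most abundant miRNAs of each library, since these scalings move every log2 ratio by 0.24 and 0.07. The median of the 179 entries was then 0.28 and 0.11. The 36 alternatives for single members repeat the same settings for each of the 6 members, so they are not independent checks. Of these, 0 changed sign. Each scaling moves all members alike, by 0.24 at most, which is too little to turn the sign of any member. In 7 of them the value left the counting interval of the main ratio. miR-181a-5p lay between -0.93 and -0.67 and miR-181b-5p, the nearest to 0 under scaling to totals, between -0.41 and -0.15. The arm balance difference of miR-181a lay at -1.37 with both 3p products, at -1.46 with 5 reads added and at -1.47 with the deposited fold changes. Of these, only the choice of 3p products could have moved it much. Adding 5 reads changes little at the depth of these products, and the deposited fold changes come from the same signals. Over miR-181a-5p and miR-181b-5p alone, the share of miR-181a-5p was 46.6% in UM-SCC6-M and 55.6% in the parental library, because the denominator is smaller. Depth limits miR-181c-5p and miR-181b-2-3p, on 24 or fewer reads a library.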
